A study of Mus musculus with 49 samples.

Results

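The switch from 4 to 24 hr of IL-2 was examined in wild-type (WT) CD8+ T cells, which bear the CD8 co-receptor and can become killer cells, from mouse spleen. It covers 11 of the 48 RNA-seq libraries of the series, chosen by their labels: WT cells at 4 hr (5 libraries) and at 24 hr (6 libraries). The WT mice were littermates from a *Stat5a* line and a *Stat5b* line, in which the knock-in (KI) allele changes the tyrosine that is phosphorylated on STAT5A or on STAT5B to phenylalanine. The mice were adult and of both sexes, and their strain is labelled C57BL/6J, to which the KI lines, made in zygotes of a hybrid cross, had been backcrossed. CD8+ T cells were isolated from spleen by removal of the other cells, kept in human recombinant IL-2 (500 IU/ml), and collected at 0, 4, 24, or 48 hr. The study's methods do not say whether the libraries of a group came from separate or pooled mice, so p-values measure only the spread between these libraries. The *Stat5a* line gave 2 WT libraries at 4 hr and 3 at 24 hr, and the *Stat5b* line gave 3 and 3. The WT library of replicate 2 from the *Stat5a* line at 4 hr was left out, because only 44.9% of its mapped reads lay on the transcripts used. The 11 libraries had 37167100 to 48953990 reads on those transcripts, 71.7% to 80.0% of their mapped reads.

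IL-2 binds a receptor made of an alpha, a beta, and a common gamma chain. The kinases JAK1 and JAK3 on this receptor phosphorylate STAT5A and STAT5B, which form dimers, enter the nucleus, and bind the GAS motif. Isolated T cells also carry a stress and activation program of AP-1, EGR, and NR4A factors and of inhibitors that NF-kB induces. With continued IL-2, CD8+ T cells grow in size, make nucleotides and ribosomes, copy their DNA under the control of E2F factors, and load granules with granzymes.

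Sequences near the start sites of DNA replication genes are shown, because an E2F motif was found in some of them and in few promoters overall. The letters TTTGGCGC or TTTCGCGC, on either strand, were sought from 250 bases before to 50 bases after the RefSeq gene start (GRCm38.p6). They were present in 9 of 41 DNA replication genes with a promoter entry (22%), in 32 of 815 genes called higher at 24 hr (3.93%), in 7 of 716 called lower (0.978%), in 165 of 10167 genes tested (1.62%), and in 225 of all 27025 promoters (0.833%). The windows are written 5′ to 3′ on the strand of the gene, with the motif in capitals.
*Orc1* (chr4:108579417-108579444, + strand): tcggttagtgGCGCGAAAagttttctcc
*Mcm3* (chr1:20820263-20820290, - strand): ggaaaacttgggaagtTTTGGCGCcaag
*Mcm5* (chr8:75109350-75109377, + strand): aagaacTTTCGCGCCAAAacgtccagcc
*Mcm6* (chr1:128359735-128359762, - strand): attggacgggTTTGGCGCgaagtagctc
*Mcm7* (chr5:138171850-138171877, - strand): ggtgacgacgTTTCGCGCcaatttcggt
*Pola1* (chrX:93632276-93632303, - strand): tcatcacaggGCGCCAAAtgcactcccg
*Rfc3* (chr5:151651201-151651228, - strand): cgtcgcacgcTTTCGCGCtcgcgggaaa
*Cdt1* (chr8:122568037-122568064, + strand): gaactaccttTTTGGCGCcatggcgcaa
*Pole2* (chr12:69228163-69228190, - strand): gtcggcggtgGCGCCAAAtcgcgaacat
The match shown lay upstream of the gene start for *Orc1* (bases -27 to -20), *Mcm5* (-153 to -146 and -149 to -142, which overlap), *Mcm6* (-47 to -40, with further matches at -110 to -103 and -106 to -99), *Pola1* (-138 to -131), and *Rfc3* (-10 to -3). It lay downstream of the start for *Mcm3* (39 to 46), *Mcm7* (17 to 24), *Cdt1* (33 to 40), and *Pole2* (11 to 18). Of these 9 genes, 7 were called higher at 24 hr, while *Cdt1* (log2 fold change 0.43 ± 0.0497) and *Pole2* (0.24 ± 0.0761) did not reach a change of 2-fold. In the whole list of DNA replication genes, with or without the motif, 36 of 50 were called higher, which is a similar share. The CCAAT box (letters CCAAT, either strand) was in 29 of 39 mitosis promoters (74.4%), 25 of 41 DNA replication promoters (61.0%), 38.7% of promoters of genes tested, and 37.9% of all promoters. The share was as high in lists of which few members were called higher, such as sterol and fatty acid synthesis (15 of 19, 78.9%) and effector and memory transcription factors (9 of 12, 75%).

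The GAS letters TTCNNNGAA were in 6 of 16 promoters of JAK-STAT5 feedback genes and direct STAT5 targets (37.5%) in 4 of 12 of NF-kB feedback genes (33.3%), in 6 of 21 of interferon-stimulated genes (28.6%), in 7.05% of promoters of genes tested, and in 8.47% of all promoters. *Cish* holds another match (bases 12 to 20) that runs past the end of the window shown by its last base, and *Lta* another (-152 to -144) outside it. These windows are shown because their genes moved in different directions, as described further on.
*Cish* (chr9:107296650-107296677, + strand): cgcccagttTTCCTGGAAagttcttgga
*Lta* (chr17:35205349-35205376, - strand): cgactccctTTCCCAGAAcgcagtagtc
*Gzmb* (chr14:56262285-56262312, - strand): agtagggcaggagttTTCATAGAAagca
*Socs3* (chr11:117969502-117969529, - strand): aaaccagccTTCTTAGAAgggagggggg
*Il12rb2* (chr6:67376293-67376320, - strand): ttcccttttTTCTCAGAAccgcactaag
*Bcl6* (chr16:23988952-23988979, - strand): gcaaattagTTCTCAGAAttccagaggc
Of these 6 genes, *Gzmb* was called higher and *Bcl6* lower at 24 hr, and the other 4 were not called. The call of *Bcl6* was lost without either of 2 libraries, as described further on. A match describes the letters and not a bound site.

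Of 13931 genes tested, 1144 (8.21%) were called higher and 1029 (7.39%) were called lower at 24 hr than at 4 hr. A gene was called where it changed by 2-fold or more with a p of at most 0.05 after Benjamini-Hochberg adjustment in edgeR's quasi-likelihood test with the line as a block, and the log2 fold changes and adjusted p values below are from this fit, with the SE. At the adjusted p alone, 4730 were higher and 4887 lower. The split depended on how abundant the genes were. Among the 8075 genes with a mean RPKM (a read count scaled to transcript length and library size) of at least 5 at 4 or at 24 hr, 586 were called higher and 215 lower, so that higher genes made up 73.2% of the calls instead of 52.6%. With the mean of at least 5 taken over all 11 libraries they made up 75.2%, and with limma on log2(RPKM + 1) 74.1%. On a principal component analysis, the 4 and 24 hr libraries lay apart on the component that held 64.4% of the variance, at -55.6 to -47.3 and 36.3 to 49.3. On the next component (10.3% of the variance), replicate 1 of the *Stat5a* line at 4 hr (27.8) and replicates 1 and 2 of that line at 24 hr (34.9 and 27.0) stood apart from the other 8 libraries (-20.4 to -0.410). Several early genes below were lowest in that library at 4 hr, and without it 1214 genes were called higher and 992 lower.

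Among the genes switched off between 4 and 24 hr, the AP-1, EGR, and NR4A early factors were called lower for 12 of 30 members and higher for 2, with a median log2 fold change of -0.83 against -0.02 over all genes tested. At 4 hr against 0 hr the median of this list was -1.84, so that its larger fall came before 4 hr. The members called lower were *Fosb*, *Crem*, *Fosl2*, *Klf4*, *Fos*, *Rgs2*, *Rgs1*, *Nr4a1*, *Atf3*, *Nr4a2*, *Maff*, and *Ier2*. The list also holds early genes outside the families it is named for, such as *Rgs1*, *Rgs2*, *Klf4*, and *Ier2*. *Crem* encodes a cAMP-responsive transcription factor whose forms include the early repressor ICER. Its RPKM at 4 hr was 14.2 and 28.4 in *Stat5a* line cells and 33, 30.1, and 28.4 in *Stat5b* line cells, and at 24 hr it ranged from 2.5 to 3.38 with a median of 3.1. The groups did not overlap, and it fell by 3.11 ± 0.15 on the log2 scale (adjusted p = 4.27e-10). *Crem* had been at 5.13 ± 0.614 RPKM (mean ± SD, n = 6) before IL-2 and was at 4.92 ± 1.31 (n = 6) at 48 hr, so that its level was highest at 4 hr. *Fosl2*, an AP-1 subunit, was at 12.6 and 28 RPKM in *Stat5a* line cells and 40.6, 37.8, and 32.3 in *Stat5b* line cells at 4 hr. At 24 hr it lay at 3.01 to 5.55 with a median of 4.26, a log2 fold change of -2.73 ± 0.162 (adjusted p = 3.08e-09). Replicate 1 of the *Stat5a* line was the lowest library at 4 hr for both genes, and it still lay above each library at 24 hr.

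*Fosl2* had been at 60.1 ± 7.96 RPKM before IL-2, and several other early factors had also fallen by 4 hr. *Fos*, the partner of JUN in the classical AP-1 dimer, was at 192 ± 28.2 RPKM (n = 6) before IL-2, 5.44 ± 1.36 (n = 5) at 4 hr, 1.03 ± 0.0733 (n = 6) at 24 hr, and 0.687 ± 0.0784 (n = 6) at 48 hr. Its 5 libraries at 4 hr read 5.34, 4.23, 7.72, 5.34, and 4.55 RPKM, all above the range at 24 hr of 0.943 to 1.11, and it fell by 2.37 ± 0.137 (adjusted p = 2.42e-09). *Fosb*, another AP-1 subunit, went from 138.2 ± 70.1 before IL-2 to 2.42 ± 1.01 at 4 hr and 0.28 ± 0.157 at 24 hr. *Klf4*, a factor linked to T cell quiescence, went from 34.3 ± 13 to 1.18 ± 0.281 and 0.214 ± 0.0877 over the same times. *Rgs2*, which speeds the shut-off of G protein signals, went from 64.2 ± 10.4 to 7.63 ± 1.12 and 1.6 ± 0.182. The members called higher at 24 hr were *Batf3*, at 0.528 ± 0.126 and 1.9 ± 0.466 RPKM at 4 and 24 hr, and *Fosl1*, at 0.269 ± 0.0261 and 1.06 ± 0.613. Both were low at the 2 times. *Jun*, not called, was at 162 ± 27.4 RPKM before IL-2, 16 ± 1.89 at 4 hr, and 28.1 ± 5.06 at 24 hr (log2 fold change 0.84 ± 0.108).

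**Figure D1:**
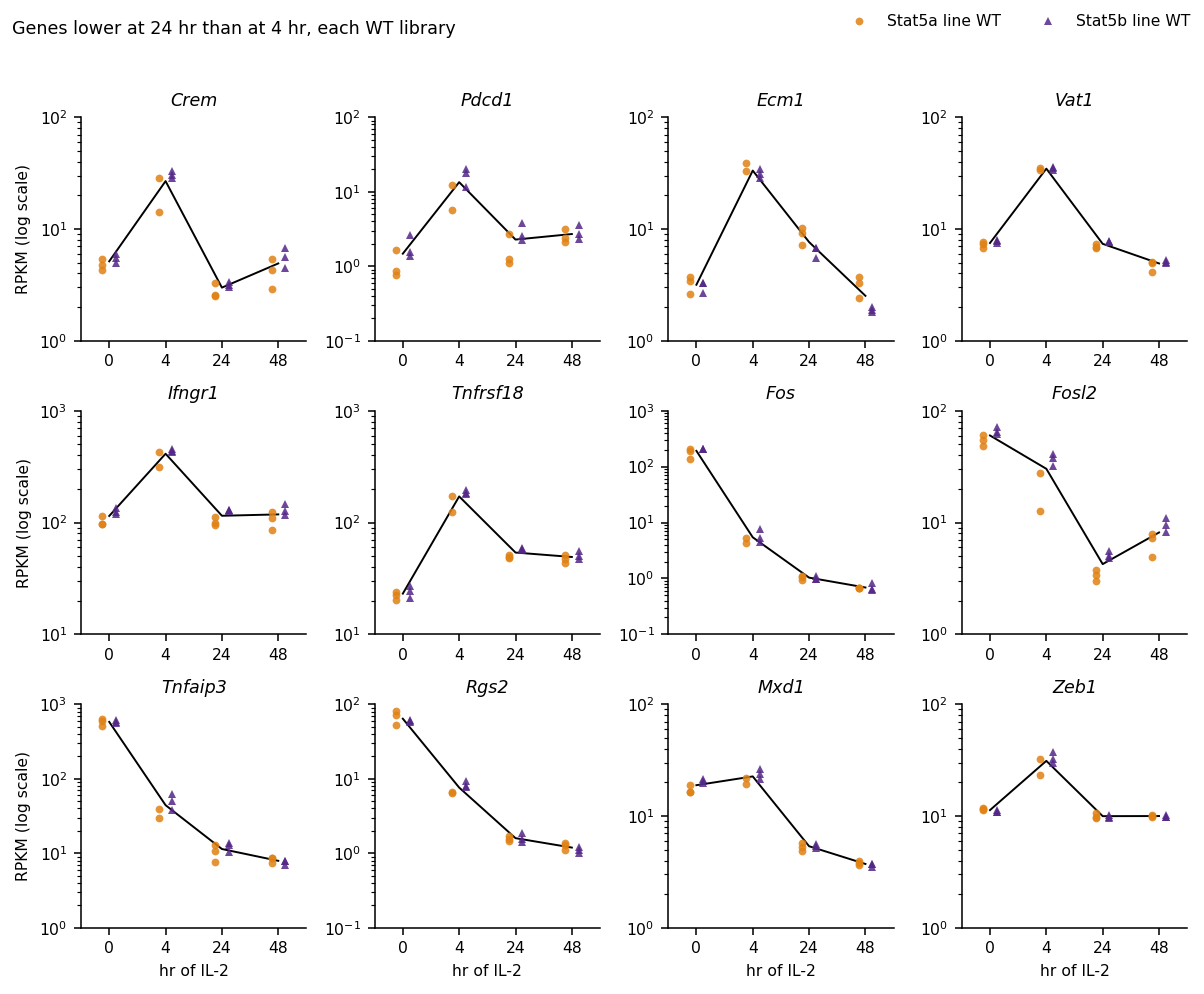
RPKM (log axis) of 12 genes called lower at 24 hr than at 4 hr, in each WT library at 0, 4, 24, and 48 hr of IL-2, with the times evenly spaced and not to scale, circles for the *Stat5a* line, triangles for the *Stat5b* line, and a black line through the mean over libraries. *Crem*, *Pdcd1*, *Ecm1*, *Vat1*, *Ifngr1*, *Tnfrsf18*, and *Zeb1* stand highest at 4 hr, *Fos*, *Fosl2*, *Tnfaip3*, and *Rgs2* are highest before IL-2, and *Mxd1* is at 18.9 and 22.6 RPKM at 0 and 4 hr and then drops to 5.37.

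The genes called lower at 24 hr included *Pdcd1*, *Ifngr1*, and *Tnfrsf18*, which encode receptors at the cell surface. *Pdcd1* encodes PD-1, an inhibitory receptor, and was at 5.67 and 12.2 RPKM in *Stat5a* line cells and 20.3, 17.6, and 11.4 in *Stat5b* line cells at 4 hr. At 24 hr it lay at 1.1 to 3.82 with a median of 2.38, below each library at 4 hr, and it fell by 2.45 ± 0.258 (adjusted p = 1.02e-06). The genes *Ifngr1*, *Tnfrsf18*, and *Ctla2a* were picked after their values were seen, from the most abundant at 4 hr among the early genes called lower in both lines. *Ifngr1* encodes the ligand-binding chain of the interferon gamma receptor. It read 315 and 425 RPKM in *Stat5a* line cells and 451, 439.8, and 432 in *Stat5b* line cells at 4 hr, and 94.1 to 130.1 at 24 hr (log2 fold change -1.81 ± 0.0727, adjusted p = 8.68e-11). *Tnfrsf18*, which encodes the co-stimulatory receptor GITR, read 123.4 and 172 RPKM in *Stat5a* line cells and 195, 185, and 181 in *Stat5b* line cells at 4 hr, and 48.1 to 59.5 with a median of 54.4 at 24 hr (log2 fold change -1.63 ± 0.0681). The groups did not overlap for either gene. *Ifngr1* was at 114.5 ± 15.3 RPKM before IL-2 and 118.2 ± 20.2 at 48 hr, and *Tnfrsf18* at 23.1 ± 2.46 and 49.2 ± 4.11, so that *Tnfrsf18* remained above its level before IL-2.

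*Vat1*, which encodes a vesicle membrane protein, varied little among libraries. Its 5 libraries at 4 hr read 33.9, 35.1, 35.6, 33.7, and 35 RPKM, and its 6 libraries at 24 hr lay at 6.75 to 7.83, a log2 fold change of -2.22 ± 0.0406 (adjusted p = 2.94e-13). *Ecm1*, an extracellular matrix protein, was at 33.3 ± 3.91 RPKM at 4 hr and 7.63 ± 1.76 at 24 hr, against 3.17 ± 0.425 before IL-2. *Ctla2a*, which encodes a cathepsin inhibitor, was at 98.9 ± 23.9 RPKM at 4 hr and 24.7 ± 6.78 at 24 hr. These genes all stood above their level before IL-2 at 4 hr. *Ifitm2*, of a family of interferon-induced membrane proteins, was at 23.4 ± 4.93 and 2.85 ± 0.712 at the 2 times. *Rhob*, a small GTPase, was at 19.3 ± 0.936 and 3.9 ± 0.949, after 35.3 ± 5.93 before IL-2. Also among the 12 largest falls were *4930417O13Rik*, the row of the *Mir22* precursor at 5.72 ± 1.17 and 0.368 ± 0.39 RPKM, and *Igj*, the antibody joining chain made by plasma cells, at 30.4 ± 5.61 and 6.52 ± 3.25. Reads on the *Mir22* row cannot be told apart from reads of its host transcript.

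The NF-kB feedback genes were called lower for 5 of 16 members and higher for none, with a median of -0.82. *Tnfaip3*, which encodes the inhibitor A20, was at 581 ± 40.4 RPKM before IL-2 and 44.3 ± 13 at 4 hr, and fell by 1.89 ± 0.151 to 11.4 ± 2.3 at 24 hr (adjusted p = 5.95e-08). *Birc3*, an inhibitor of apoptosis, and *Nfkb2*, an NF-kB subunit, were instead highest at 4 hr, with 50.8 ± 4.42 and 57.8 ± 7.33 RPKM, and were at 22.2 ± 2.69 and 25.1 ± 5.49 at 24 hr. *Cd83*, a surface molecule of activated lymphocytes, was at 19.3 ± 2.63 and 8.01 ± 0.773, and *Relb* was the other member called. The dual-specificity phosphatases and other feedback genes of ERK signalling had 3 of 13 members called lower (*Dusp1*, *Dusp4*, and *Dusp16*) and *Spry4* called higher, with a median of -0.45. Their median at 4 hr against 0 hr was -2.09, a larger fall. *Dusp4*, a phosphatase that acts in the nucleus, was at 9.78 ± 2.146, 2.61 ± 0.41, and 0.966 ± 0.172 RPKM at 0, 4, and 24 hr.

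Genes of quiescence and lymph node homing were called lower for 9 of 24 members and higher for none, with a median of -0.75, and 22 of the members were lower at the adjusted p alone. The members called were *Tob1*, *Tsc22d3*, *Itgae*, *Bach2*, *Klf3*, *Rasa3*, *Il7r*, *Btg1*, and *S1pr1*. Of these, *S1pr1* (log2 fold change -1.004) stood at the edge of the 2-fold rule and lost its call with the replicate number as a block, with no line block, with 12 or 23 libraries, with no filter on low counts, and (-0.99 to -0.97) without replicate 1 at 4 hr or replicate 2 at 24 hr of the *Stat5a* line or replicate 2 or 3 at 4 hr or replicate 2 at 24 hr of the *Stat5b* line. *Btg1* and *Rasa3* lost theirs with all 12 libraries, *Btg1* also without replicate 3 of the *Stat5a* line at 4 hr (-0.99), and *Il7r* without replicate 1 of that line at 24 hr (-0.99). *Tob1*, an antiproliferative factor, read 15.5, 15.5, 16.2, 14.6, and 14.1 RPKM at 4 hr and 5.05 to 5.56 with a median of 5.31 at 24 hr (log2 fold change -1.51 ± 0.0507, adjusted p = 1.86e-11). *Tsc22d3*, which encodes the glucocorticoid-induced protein GILZ, read 77.3, 86.7, 86.2, 75.9, and 85.6 RPKM at 4 hr and 30.6 to 41.9 at 24 hr. The groups did not overlap for either gene, and both had been higher still before IL-2, at 36.6 ± 8.21 and 149.9 ± 16.1 RPKM. *Bach2*, a repressor that holds back effector genes, went up and then down, at 17.5 ± 1.01 RPKM before IL-2, 34.6 ± 2.52 at 4 hr, 15.7 ± 1.24 at 24 hr, and 8.63 ± 0.747 at 48 hr. *Il7r*, a chain of the receptor for the survival cytokine IL-7, fell by 1.05 ± 0.0810.

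Of the effector and memory transcription factors, *Zeb1* and *Bcl6* were called lower and *Eomes* and *Zbtb32* higher among 16 tested, with a median of -0.30. These counts are not far from the shares over all genes tested, 8.21% higher and 7.39% lower. The call of *Bcl6* rested on replicate 1 at 4 hr and replicate 3 at 24 hr of the *Stat5a* line (-0.96 and -0.99 without them in turn). *Zeb1*, a zinc-finger repressor, was at 11.3 ± 0.392 RPKM before IL-2, 31.2 ± 5.2 at 4 hr, and 9.98 ± 0.345 at 24 hr. *Eomes*, a T-box factor of killer and memory cells, read 7.76, 9.9, 14.2, 18.1, and 12.2 RPKM at 4 hr and 33.9 to 50.8 at 24 hr. *Tbx21*, which encodes the related factor T-bet, was not called (0.86 ± 0.122).

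In the MYC, MAX, and MXD network, which sets growth against its antagonists, *Myc* itself was not called. *Myc* read 85.2, 87.6, 89.4, 102.5, and 99.5 RPKM at 4 hr and 94.5 to 122.9 with a median of 100.7 at 24 hr, and the groups overlapped (log2 fold change 0.19 ± 0.0622, adjusted p = 0.0127). It was at 29.8 ± 14.7 RPKM before IL-2. *Mxd1*, an antagonist of MYC, read 19.5, 21.9, 26.6, 23.7, and 21.5 RPKM at 4 hr and 4.88 to 5.78 with a median of 5.35 at 24 hr, a log2 fold change of -2.05 ± 0.0664 (adjusted p = 1.54e-11). *Mxd4*, another antagonist, fell by 1.38 ± 0.0640 from 25 ± 1.44 to 9.51 ± 0.794, and *Mycl* fell by 1.76 ± 0.236. *Mxd3*, a further member of the MXD family, rose by 2.38 ± 0.184, from 1.33 ± 0.373 to 6.68 ± 1.92 RPKM, and *Mycn* rose from 0.0271 ± 0.0239 to 1.01 ± 0.356.

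To follow early genes into the switch without using the same libraries, genes called higher at 4 hr than at 0 hr in the WT cells of 1 line were counted in the other line, each line in a fit of its own. Of 904 early genes of the *Stat5a* line, 896 were tested in the *Stat5b* line, where 194 (21.7%) were called lower at 24 hr than at 4 hr, against 7.34% of all genes tested there, and 48 (5.36%) were called higher, against 8.73%. Of 875 early genes of the *Stat5b* line, 867 were tested in the *Stat5a* line, where 199 (23%) were called lower, against 5.20% of all genes, and 48 (5.54%) higher, against 7.59%. Their median log2 fold changes were -0.40 and -0.45, against -0.01 and 0.01 over all genes. Most of the early genes were therefore not called in either direction at 24 hr. At a mean RPKM of at least 5 over all WT libraries (0, 4, and 24 hr), 35 of 310 and 33 of 275 early genes were called lower. These were 11.3% and 12%, against 2.74% and 2.16% of all such genes. Called higher were 20 (6.45%, against 6.62%) in the *Stat5b* line and 22 (8%, against 5.89%) in the *Stat5a* line. Among these more abundant genes, early genes were thus not called higher less often in both lines. Genes that had fallen by 4 hr were followed in the same way: of 1238 from the *Stat5a* line tested in the *Stat5b* line, 242 (19.5%) were called lower again and 197 (15.9%) higher, and of 1143 in the opposite direction, 9.54% were called lower and 188 (16.4%) higher. At the mean RPKM of at least 5 over all WT libraries, 53 of 400 (13.2%) and 35 of 335 (10.4%) of them were called lower. Another 55 (13.8%) and 54 (16.1%) were called higher. Among these more abundant genes, the share called lower was thus not particular to early genes.

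Some direct targets of STAT5 belonged to the early genes that stayed on. Of 20 JAK-STAT5 feedback genes and direct targets, 2 were called higher (*Lif* and *Gzmb*) and *Bcl6* lower, with a median of 0.37 at 24 hr against 4 hr and of 1.58 at 4 hr against 0 hr. *Bcl6* (log2 fold change -1.06 ± 0.141) fell short of 2-fold without replicate 1 at 4 hr (-0.96) or replicate 3 at 24 hr (-0.99) of the *Stat5a* line. *Cish*, a feedback inhibitor of the IL-2 receptor, was at 5.33 ± 2.23 RPKM before IL-2. It read 44, 44, 51.5, 46.3, and 44.2 RPKM at 4 hr and 26.8 to 41.8 with a median of 34.3 at 24 hr, below each library at 4 hr but short of a 2-fold change (-0.44 ± 0.0753, adjusted p = 0.000126). *Socs3*, a feedback inhibitor shared with other cytokine receptors, was at 63.1 ± 8.62 RPKM at 4 hr and 41.4 ± 4.09 at 24 hr. *Lta*, the cytokine lymphotoxin alpha, was at 3.76 ± 0.536 RPKM before IL-2, 49.7 ± 2.255 at 4 hr, and 62 ± 15.9 at 24 hr. *Osm* and *Tnf*, both cytokines, and the G1 kinase *Cdk6* were likewise not called between 4 and 24 hr, with log2 fold changes of 0.90 ± 0.0814, 0.67 ± 0.0655, and 0.73 ± 0.0638. They stood at 1.83 ± 0.201, 5.01 ± 1.85, and 5.08 ± 0.616 RPKM before IL-2 and at 14 ± 2.45, 19.4 ± 3.04, and 21.7 ± 3.52 at 4 hr. *Socs2*, a feedback inhibitor of cytokine receptors, was at 1.3 ± 0.27, 4.42 ± 0.418, and 8.26 ± 0.911 RPKM at 0, 4, and 24 hr. The cytokine *Il16* (-0.09 ± 0.0452) and the kinase *Cdk7* (-0.11 ± 0.0487) were not called.

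The receptor chains of IL-2 differed in their course. *Il2ra*, the alpha chain that makes the receptor of high affinity, read 13.6, 10.4, 11.5, 11.1, and 10.3 RPKM at 4 hr and 14.5 to 28.3 with a median of 21.8 at 24 hr. The difference of 0.95 ± 0.137 (adjusted p = 2.44e-05) was just short of 2-fold, and with the left-out library included it was 0.25. *Il2rb*, the beta chain, was at 228 ± 47.1 and 216 ± 31.2 RPKM at 4 and 24 hr, and *Il2rg*, the common gamma chain, at 254 ± 7.31 and 320.4 ± 17.8. *Stat5b* mRNA read 40.9, 46.6, 49.6, 51.2, and 47.7 RPKM at 4 hr and 23.6 to 27.1 at 24 hr, all below (-0.85 ± 0.0538, adjusted p = 5.73e-09), whereas *Stat5a* mRNA was at 20.4 ± 0.795 and 21.3 ± 1.29. Of 14 receptor genes of the common gamma chain and IL-12 families, *Il9r* and *Il7r* were called lower and *Il12rb1* and *Il15ra* higher, *Il7r* with the exception named for it. Over all genes tested 8.21% were called higher and 7.39% lower, so this list was not far from that background. *Il12rb2*, the signalling chain of the IL-12 receptor, was at 1.7 ± 0.169 RPKM before IL-2, 13.9 ± 3.51 at 4 hr, 9.55 ± 2.23 at 24 hr, and 22.7 ± 2.5 at 48 hr.

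Markers of other spleen cells moved with the falls. The summed RPKM of 15 B cell markers was 654 to 971 in the libraries at 4 hr and 256 to 491 at 24 hr, with 7 of 15 called lower, of which *Cd74* was the most abundant at 262 to 384 and then 110 to 184 RPKM. CD4 T and regulatory T cell markers summed to 33.1 to 39.6 at 4 hr and 15.4 to 19.8 at 24 hr, with 3 of 6 called lower (*Ctla4*, *Foxp3*, and *Cxcr5*), of which *Cxcr5* was at -0.99 without replicate 1 of the *Stat5b* line at 4 hr, and *Cd4* itself was at 4.06 ± 0.70 and 2.49 ± 0.948 RPKM. The most abundant of these markers was *Cxcr5* or *Ctla4* at 4 hr and *Cxcr5* at 24 hr. Myeloid markers summed to 160 to 206 and then 130 to 171, with 8 of 20 called lower, and *Ctss* was the most abundant at 91.3 to 106.7 and 91.4 to 110 RPKM. Between 1 and 4 of the 21 myeloid markers were under 0.1 RPKM in a library at 4 hr, and 3 to 5 at 24 hr. Hemoglobin and other erythroid and platelet markers summed to 46.4 to 378 and then 22.9 to 53.6, with 7 of 9 called lower, and the highest sum was in replicate 1 of the *Stat5a* line at 4 hr. The 14 CD8 T cell markers summed to 1844 to 2367 at 4 hr and 2506 to 2886 at 24 hr, with none called, above each of the other sums at both times. NK cell markers summed to 132.4 to 193 and 155 to 213 (2 of 13 called higher), and markers of memory-phenotype CD8 T cells to 486 to 1113 and 759 to 1298 (3 of 11 called higher, 1 lower). The part of these other cells in the falls of *Igj*, *Il10*, *Bcl6*, and the other genes was not tested, and in bulk RNA fewer cells of a type cannot be told apart from less RNA per cell.

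DNA replication genes came on at 24 hr: 36 of 50 members were called higher and none lower, with a median log2 fold change of 1.61. In 45 of 50, each library at 24 hr lay above each library at 4 hr, against 23.6% of all genes tested (24.1% lay all below). *Orc1* and *Cdc6*, which license replication origins, were among the 12 largest rises. *Orc1* read 0.163 and 0.239 RPKM in *Stat5a* line cells and 0.162, 0.248, and 0.237 in *Stat5b* line cells at 4 hr, and 4.19 to 6.64 with a median of 5.24 at 24 hr (rise of 4.72 ± 0.128, adjusted p = 3.92e-12). *Cdc6* read 0.408, 0.519, 0.523, 0.387, and 0.461 RPKM at 4 hr and 7.33 to 11.6 with a median of 9.47 at 24 hr (4.39 ± 0.122, adjusted p = 4.37e-12). Both had been higher before IL-2 than at 4 hr, at 1.14 ± 0.27 and 1.1 ± 0.0872 RPKM. *Mcm10*, a replication initiation factor, was at 0.714 ± 0.138 before IL-2, 0.617 ± 0.0862 at 4 hr, 11 ± 2.43 at 24 hr, and 23.7 ± 1.82 at 48 hr. *Rrm2*, the regulated subunit of ribonucleotide reductase, was at 6.01 ± 0.697, 4.36 ± 0.697, 54.2 ± 11.5, and 172 ± 17.4 RPKM at 0, 4, 24, and 48 hr. *Dtl*, a ubiquitin ligase adaptor that marks licensing factors for destruction in S phase, rose by 4.20 ± 0.0922 to 12.8 ± 2.31 RPKM.

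Several of the regulators upstream were called higher as well. Of 24 G1/S cyclins, kinases, and E2F factors, 13 were called higher and none lower, with a median of 1.17. *E2f1*, an activator of S phase genes, read 1.6, 1.86, 1.75, 1.84, and 1.74 RPKM at 4 hr and 12.8 to 19.9 with a median of 16.4 at 24 hr (rise of 3.25 ± 0.0899, adjusted p = 4.37e-12), and was at 20.0 ± 1.43 at 48 hr. *E2f2* and *E2f3*, the other activators, rose by 2.10 ± 0.109 and 1.54 ± 0.0921, and the repressors *E2f7* and *E2f8* rose by 3.13 ± 0.129 and 2.99 ± 0.128. *Tfdp1*, a dimer partner of the E2F proteins, read 15.5, 15.4, 18.1, 17.6, and 19.6 RPKM at 4 hr and 56.4 to 80.1 with a median of 66 at 24 hr (1.99 ± 0.0511). The groups did not overlap for *E2f1* or *Tfdp1*. *Ccne2*, which encodes cyclin E2, rose by 2.93 ± 0.193 to 5.75 ± 1.33 RPKM, whereas *Ccnd1*, which encodes cyclin D1, was at 1.06 ± 0.205 and 1.09 ± 0.443. Of 10 CDK inhibitors and pocket proteins, *Cdkn1c* was called lower and *Cdkn2a* higher (2 higher without replicate 1 of the *Stat5a* line or replicate 3 of the *Stat5b* line at 4 hr), with a median of -0.23, and *Cdkn1b*, which encodes p27, was not called (-0.69 ± 0.0506). Such counts are near the 8.21% called higher and 7.39% called lower over all genes tested.

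Mitosis and kinetochore genes were called higher for 42 of 48 members and lower for none, with a median of 1.76. *Cdk1*, the kinase that drives entry into mitosis, read 1.17 and 1.43 RPKM in *Stat5a* line cells and 1.62, 1.5, and 1.6 in *Stat5b* line cells at 4 hr, and 8.07 to 13.3 with a median of 9.99 at 24 hr (rise of 2.87 ± 0.112, adjusted p = 6.78e-11). *Mybl2*, a transcription factor of the cell cycle, and *Bub1*, a checkpoint kinase of the spindle, rose by 2.88 ± 0.11 and 2.80 ± 0.158. At 48 hr against 24 hr the median of this list was 1.94, and that of the DNA replication genes was 0.66. DNA repair and damage checkpoint genes were called higher for 20 of 30 members and lower for none (median 1.57), with the checkpoint genes *Chek1* (3.82 ± 0.126) and *Clspn* (3.74 ± 0.125) among them. Of 16 p53 targets and apoptosis genes tested, *Pmaip1*, *Bbc3*, and *Bcl2l11*, which encode death-promoting members of the BCL-2 family, were called lower and none was called higher. *Bcl2l11* fell short of 2-fold (-1.0 to -0.97) without replicate 1 of the *Stat5a* line at 24 hr or replicate 2 or 3 at 4 hr or replicate 2 at 24 hr of the *Stat5b* line, and with all 12 libraries 1 of the 3 was called.

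**Figure D2:**
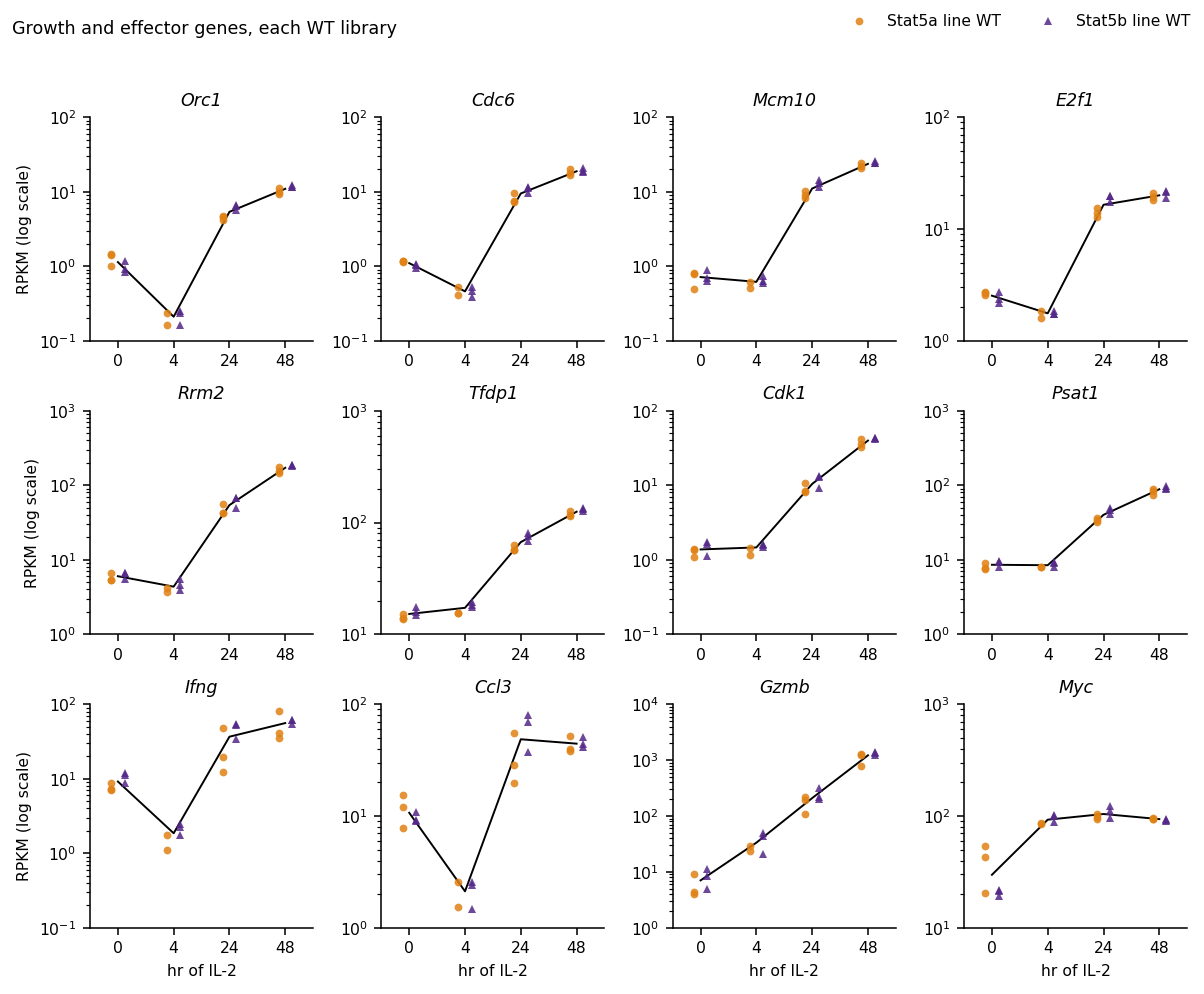
RPKM (log axis) of 12 growth and effector genes in each WT library at 0, 4, 24, and 48 hr of IL-2, with the times evenly spaced and not to scale, circles for the *Stat5a* line, triangles for the *Stat5b* line, and a black line through the mean over libraries. *Orc1*, *Cdc6*, *Ifng*, and *Ccl3* are lower at 4 hr than before IL-2 and then rise, *Gzmb* climbs at each step from 7.06 to 1221 RPKM, and *Myc* is at 92.8, 104.3, and 93.9 RPKM at 4, 24, and 48 hr.

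Most of the listed enzymes that make the building blocks of DNA were called higher at 24 hr. Of 15 serine, glycine, and folate enzymes tested, 11 were called higher and none lower, with a median of 1.62. *Psat1*, an enzyme of serine synthesis, read 8.01, 7.96, 7.93, 9.3, and 9.05 RPKM at 4 hr and 32.5 to 49.8 with a median of 39 at 24 hr (2.27 ± 0.0734, adjusted p = 1.54e-11). *Shmt1*, which moves a carbon unit from serine to folate, rose by 2.23 ± 0.0889 to 21.8 ± 3.72 RPKM. Of 28 purine and pyrimidine synthesis enzymes, 19 were called higher, with a list median of 1.19. Among them were *Tk1* (3.52 ± 0.146), which salvages thymidine, *Dut* (2.53 ± 0.0765), which keeps uracil out of DNA, and *Rrm1* (2.16 ± 0.0751), the large subunit of ribonucleotide reductase. The muscle-type enzyme *Adssl1* was called lower (-2.10 ± 0.13), from 2.73 ± 0.363 to 0.624 ± 0.103 RPKM.

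Glycolysis and lactate genes were called higher for 10 of 22 members and lower for *Eno2* (median 0.87). *Ldha*, which makes lactate, was at 126.4 ± 15.2 RPKM at 4 hr and 324 ± 41.9 at 24 hr (1.39 ± 0.0571, adjusted p = 1.01e-10). The call of *Eno2*, the neuronal enolase (-1.02 ± 0.145), was lost with no line block (-0.97) and (-0.99 to -0.93) without replicate 3 at 4 hr or replicate 1 at 24 hr of the *Stat5a* line or replicate 2 at 4 hr or replicate 2 or 3 at 24 hr of the *Stat5b* line. *Hk2*, the inducible hexokinase, rose by 1.52 ± 0.131, and *Eno1*, the common enolase, by 1.35 ± 0.0602. Of 18 amino acid and nutrient transporters, 6 were called higher, including *Slc7a5*, the leucine carrier, which rose by 1.5 ± 0.0967 from 14.6 ± 0.916 to 40.9 ± 8.85 RPKM. *Slc7a11*, the cystine carrier, was called lower at 0.306 ± 0.0579 and 0.13 ± 0.0213 RPKM. Sterol and fatty acid synthesis had 1 of 28 members called higher (*Idi1*) and 2 lower (*Scd1* and *Fads2*), with a median of 0.38. Without replicate 3 of the *Stat5b* line at 24 hr *Idi1* was at 0.98 and none was called higher, and without replicate 1 of the *Stat5a* line at 4 hr 3 were.

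Ribosome biogenesis and RNA polymerase I genes were called higher for 15 of 50 members and lower for none. Their median was 0.86, and in 48 of 50 each library at 24 hr lay above each library at 4 hr. Over all genes tested 23.6% lay above in this way, and 8.21% were called higher. *Rrp12*, needed for export of ribosome subunits, rose by 1.63 ± 0.0647, from 6.5 ± 0.419 to 19.9 ± 1.86 RPKM. Aminoacyl-tRNA synthetases had 3 of 20 members called higher (*Wars*, *Vars*, and *Farsb*) with a median of 0.64, and 20 passed the adjusted p alone in this direction. Of these calls *Farsb* was lost without replicate 1 of the *Stat5b* line at 4 hr, and 5 members were called without replicate 1 of the *Stat5a* line or replicate 3 of the *Stat5b* line at 4 hr, or with all 12 libraries. Translation initiation factors had no member called among 38 (median 0.39), although 31 were higher and 2 lower at the adjusted p alone. Of the cytosolic ribosomal proteins none of 60 was called, the median was -0.09, and at the adjusted p alone 4 were higher and 23 lower.

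Other housekeeping groups shifted by less than 2-fold for most members. Cytosolic chaperones were called higher for 5 of 24 members (median 0.77), among them *Hspd1*, which read 62.7, 61.7, 58.8, 59, and 61.7 RPKM at 4 hr and 157.2 to 188 at 24 hr (1.52 ± 0.0495). Its product and that of *Hspe1* (1.13 ± 0.0456) fold proteins in mitochondria, although the list is named for the cytosol. Nucleoporin and nuclear transport genes were called higher for 10 of 32 members (median 0.60), with *Rcc1* and *Ranbp1*, which run the RAN cycle, at 1.53 ± 0.0674 and 1.51 ± 0.0568. Proteasome subunits had 1 of 33 members called higher (median 0.52), the nuclear-encoded respiratory chain 2 of 35 (0.57), and mitochondrial ribosomal proteins 1 of 35 (0.67). In these lists none was called lower, while 32, 34, and 34 members were higher at the adjusted p alone. Of the mitochondrial ribosomal proteins 2 were called with the replicate number as a block, with all 12 libraries, with no filter on low counts, and without replicate 1 at 4 hr or replicate 2 at 24 hr of the *Stat5a* line or replicate 2 or 3 of the *Stat5b* line at 4 hr, and of the respiratory chain 1 was called without replicate 1 at 4 hr or replicate 3 at 24 hr of the *Stat5b* line.

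**Figure D3:**
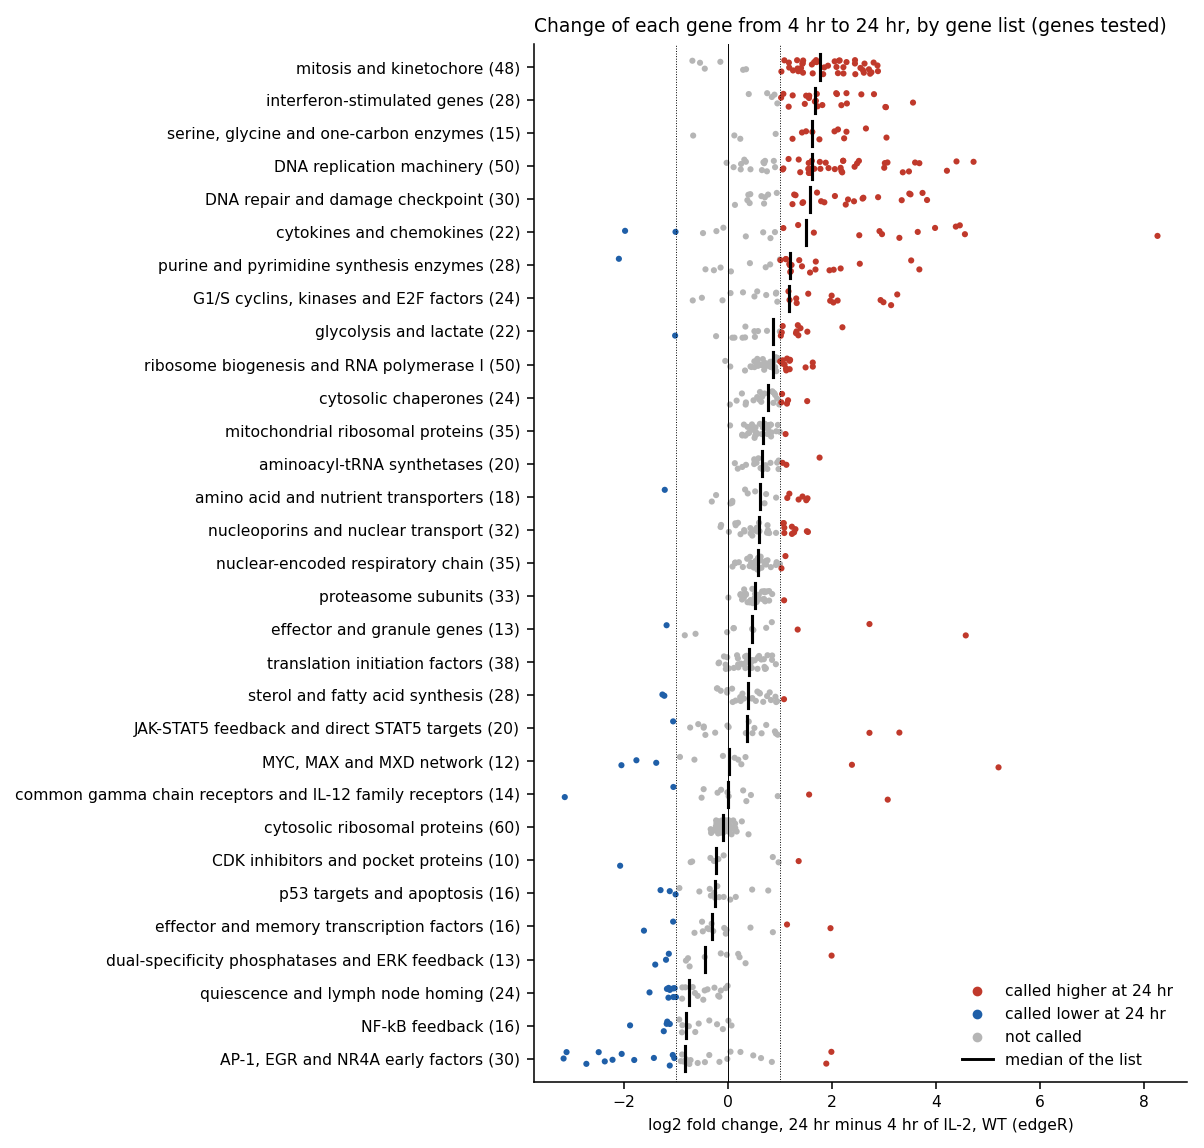
Log2 fold change at 24 hr minus 4 hr (horizontal axis) of each tested gene in the gene lists (rows), red for called higher, blue for called lower, and grey for not called, with a black bar at the median of the list and dotted lines at a 2-fold change. Mitosis, interferon-stimulated, folate, and replication genes have medians of 1.61 to 1.76, and the AP-1, NF-kB, and quiescence lists have medians of -0.83 to -0.75.

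Of 22 cytokine and chemokine genes tested, 13 were called higher and 2 lower (*Il10* and *Ccl5*), with a median of 1.5. *Ccl5* was at the edge of the 2-fold rule (log2 fold change -1.01 ± 0.194), and its call was lost with the replicate number as a block (-0.96), with all 12 libraries (-0.92), with no filter on low counts, and (-0.99 to -0.86) without replicate 3 at 4 hr or replicate 1 or 2 at 24 hr of the *Stat5a* line or replicate 2 at 4 hr or replicate 1 or 3 at 24 hr of the *Stat5b* line. *Ifng*, the interferon made by killer cells, read 1.74 and 1.1 RPKM in *Stat5a* line cells and 1.74, 2.45, and 2.27 in *Stat5b* line cells at 4 hr. At 24 hr it read 12.2, 19.5, and 48 in *Stat5a* line cells and 53, 54.2, and 33.7 in *Stat5b* line cells, all above the libraries at 4 hr but with a wide spread among them (rise of 4.38 ± 0.341, adjusted p = 4.65e-08). *Ccl3* and *Xcl1*, chemokines that draw other immune cells, rose by 4.55 ± 0.335 and 4.45 ± 0.247, from 2.12 ± 0.556 to 48.7 ± 24.1 RPKM and from 10.1 ± 1.41 to 216 ± 90.8. *Ccl4*, a close copy of *Ccl3*, rose by 3.64 ± 0.254, and the values of both are uncertain as far as reads that match both genes were not kept as unique. *Ccl1*, a chemokine, had 2 reads in 1 of the 5 libraries at 4 hr and 0 reads in the other 4, where a count of 0 allows up to 3 reads, and 38 to 265 reads (1.52 to 8.95 RPKM) in the 6 libraries at 24 hr. *Lif*, a cytokine of the IL-6 family, rose from 0.715 ± 0.109 to 6.81 ± 1.9 RPKM (3.29 ± 0.208).

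Granule genes did not all follow. Of 13 effector and granule genes tested, *Gzmc*, *Gzmb*, and *Nkg7* were called higher and *Gzmk* lower, with a median of 0.46. With no filter on low counts or with 23 libraries, 5 were called higher. *Gzmb*, the granzyme that cleaves caspases, read 23.4 and 29.1 RPKM in *Stat5a* line cells and 21.2, 44.8, and 48.8 in *Stat5b* line cells at 4 hr, and 209.9 ± 65.6 at 24 hr, with no overlap (2.72 ± 0.23, adjusted p = 1.08e-07). It had been at 7.06 ± 3.0 before IL-2 and was at 1221 ± 227 at 48 hr. *Gzmc*, another granzyme, rose by 4.57 ± 0.257, from 0.265 ± 0.125 to 5.84 ± 2.38 RPKM. *Gzmk* was at 21.9 ± 16.3 and 8.59 ± 6.6 with overlapping groups (-1.18 ± 0.459, adjusted p = 0.0335), and this call was lost with DESeq2, with no line block, and with all 12 libraries. It was also lost (-1.21 to -0.84) without replicate 3 at 4 hr or replicate 1 or 2 at 24 hr of the *Stat5a* line or replicate 1 or 2 at 4 hr or replicate 3 at 24 hr of the *Stat5b* line. *Tspan4*, a tetraspanin and 1 of the 12 largest rises, went from 0.562 ± 0.143 to 8.25 ± 1.66 RPKM (3.94 ± 0.122).

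Interferon-stimulated genes were called higher for 23 of 28 members and lower for none, 28 were higher at the adjusted p alone, and the median was 1.68. *Oasl2*, of the oligoadenylate synthetase family, read 1.73 and 0.779 RPKM in *Stat5a* line cells and 0.883, 1.13, and 2.04 in *Stat5b* line cells at 4 hr, and 8.96 to 22.3 with a median of 14.2 at 24 hr (3.55 ± 0.287, adjusted p = 6.84e-08). *Ifit3*, an antiviral effector, rose by 2.80 ± 0.286, from 3.52 ± 1.27 to 24.9 ± 9.88 RPKM. *Ifi44* and *Oas2* rose by 3.03 ± 0.494 and 3.02 ± 0.372. The list had a median of -0.56 at 4 hr against 0 hr and of -0.23 at 48 hr against 24 hr.

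The switch was measured in the WT mice of both lines, and the lines could be compared. In the *Stat5a* line 1022 genes were called higher and 852 lower, and in the *Stat5b* line 1188 and 1009. The test of the difference between the lines called no gene (0% of 13931, smallest adjusted p 0.988), with 580 genes at an unadjusted p under 0.05 in edgeR, and DESeq2 called 0 with 493 at that level. With the replicate number as a block, 0 were called with 1422 at that level. *Orc1* rose by 4.48 and 4.88 in the *Stat5a* and *Stat5b* lines (difference 0.40 ± 0.255). *Crem* had log2 fold changes of -2.94 and -3.23 (difference -0.29 ± 0.296), and *Ifng* of 4.22 and 4.47 (difference 0.25 ± 0.713). With 2 libraries at 4 hr in the *Stat5a* line, a test that calls no gene does not show that the lines act alike.

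**Figure D4:**
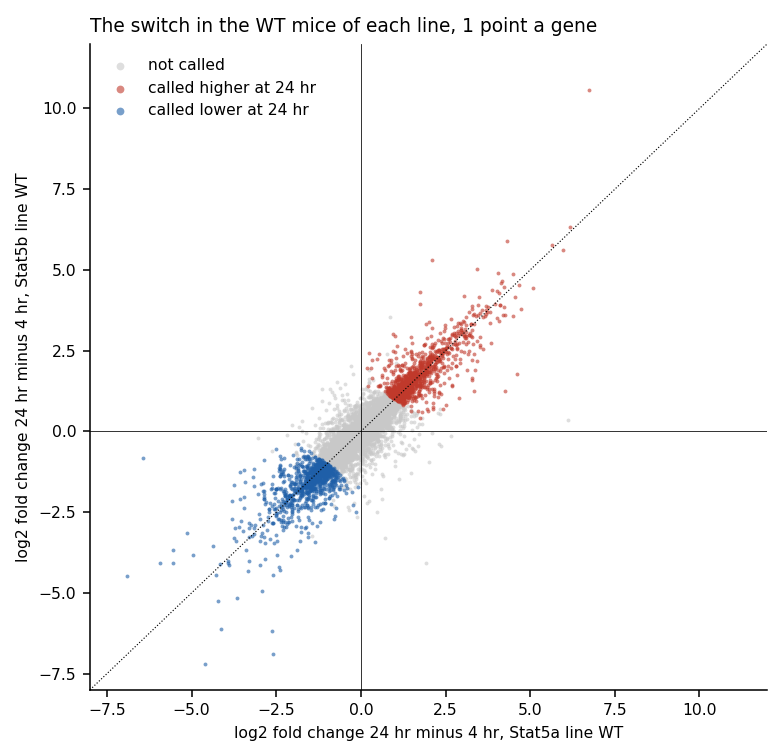
Log2 fold change at 24 hr minus 4 hr of each of the 13931 tested genes in WT cells of the *Stat5a* line (horizontal axis) and of the *Stat5b* line (vertical axis), red for called higher and blue for called lower in the fit of both lines. No gene passed the test of the difference between the lines.

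The same step was measured in KI cells of each line, and the difference of the changes was tested in a fit of 22 libraries. In the *Stat5b* line 810 genes (5.50% of 14728) had a lower change in KI than in WT cells and 365 (2.48%) a higher one. In the *Stat5a* line the counts were 294 (2.00%) and 44 (0.299%), after a KI library at 4 hr with 1028515 reads on transcripts was left out. With both libraries of few reads put back, the totals went from 338 to 11 (10 lower and 1 higher) in *Stat5a* line cells and from 1175 to 448 (416 lower and 32 higher) in *Stat5b* line cells, and without 1 other library at a time the *Stat5a* line gave 164 (33 of them higher, without KI replicate 1 at 4 hr) to 533 (101 of them higher, without KI replicate 2 at 4 hr). Its higher genes numbered 29 without WT replicate 3 at 4 hr and 27 without WT replicate 2 at 24 hr. The replicate number was not in this fit, and with it as a block the totals were 245 (180 lower and 65 higher) and 1281 (825 and 456). The deviations of same-numbered KI libraries had correlations of 0.328 and 0.16 in the *Stat5a* line and of 0.056 to 0.11 in the *Stat5b* line. In the *Stat5b* line, 43 of 48 mitosis genes, 35 of 50 DNA replication genes, 19 of 30 repair genes, and 12 of 24 G1/S genes were called lower. The counts in the *Stat5a* line were 33, 11, 7, and 5. Interferon-stimulated genes were called lower for 17 of 28 members in the *Stat5b* line and 25 of 28 in the *Stat5a* line, and cytokines for 10 and 11 of 22. The cell cycle counts of the *Stat5a* line rested on few libraries. Without KI replicate 1 at 4 hr they were 3, 2, 2, and 1, without WT replicate 1 at 4 hr 14, 7, 3, and 5, with the block 27, 7, 3, and 4, and with all 24 libraries 0 for each. The repair count was 4 without WT replicate 3 at 4 hr, WT replicate 2 at 24 hr, or KI replicate 3 at 24 hr. With all 24 libraries the interferon counts were 4 in the *Stat5b* and 2 in the *Stat5a* line, the cytokine counts 8 and 1, and the cell cycle counts of the *Stat5b* line 36, 26, 12, and 11. Whether these counts differ between the lines was not tested. The study reports fewer memory and virtual memory CD8+ T cells in mice of both KI lines, so the cells compared may differ in make-up. The 11 markers of memory-phenotype CD8 T cells had median differences of -0.28 in the *Stat5b* line and -0.20 in the *Stat5a* line. Over all genes these were 0.068 and 0.026. The part of such cells in the counts above was not tested.

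Single genes show the levels behind these counts. *E2f1* in the *Stat5b* line read 1.75, 1.84, and 1.74 RPKM in WT and 2.37, 3.1, and 2.42 in KI cells at 4 hr, and 17.4, 19.9, and 19.6 in WT and 3.74, 5.84, and 4.37 in KI cells at 24 hr. KI cells were above WT at 4 hr and below at 24 hr, and the change differed by -2.48 ± 0.21 (adjusted p = 5.68e-08). *Cdk1* in the *Stat5b* KI cells read 3.97, 5.37, and 4.64 RPKM at 4 hr and 2.68, 3.81, and 3.06 at 24 hr, with a difference from WT of -3.34 ± 0.334 (adjusted p = 3.33e-07). In the *Stat5a* KI cells *E2f1* read 2.68 and 1.88 RPKM at 4 hr and 9.28, 8.86, and 7.81 at 24 hr, with a difference from WT of -1.07 ± 0.235 (adjusted p = 0.00708). With all 24 libraries no G1/S gene, *E2f1* included, was called in the *Stat5a* line. Early genes differed among themselves. *Ecm1* had log2 fold changes of -2.31 in WT and -0.73 in KI cells of the *Stat5b* line, and at 4 hr it read 34.2, 31, and 28.8 RPKM in WT and 5.88, 4.74, and 4.77 in KI cells. *Crem* had log2 fold changes of -3.27 and -2.90, and its difference did not pass the test (0.37 ± 0.271, adjusted p = 0.305). Of the 24 quiescence and homing genes, 4 were called higher in KI than WT in the *Stat5b* line and 0 in the *Stat5a* line. In the *Stat5b* line 1 was called without KI replicate 1 at 24 hr and 0 with all 24 libraries, and in the *Stat5a* line 1 was called without WT replicate 3 at 4 hr or WT replicate 1 at 24 hr. Their median difference between KI and WT changes was 0.68 and 0.38 in the respective lines. Markers of other cells had medians of 0.64 (B cell, 0 of 15 called, 2 with the block), 0.64 (myeloid, 3 of 20 called higher, 6 with the block and 0 without WT replicate 2 at 24 hr), 0.64 (erythroid and platelet, 0 of 9), and 0.68 (CD4 T and regulatory T, 1 of 6 called higher, 0 without that library) in the *Stat5b* line and of 0.19, 0.12, -0.29, and 0.16 in the *Stat5a* line, against 0.32 and 0.22 for CD8 T cell markers and 0.068 and 0.026 over all genes, and their part in the quiescence genes was not tested. Of the 30 genes in the list of AP-1, EGR, and NR4A factors, 7 and 1 were called lower in the respective lines. With all 24 libraries these counts were 4 and 0. In the *Stat5a* line 2 were called without WT replicate 1 at 4 hr, KI replicate 2 at 4 hr, or KI replicate 1 at 24 hr. Without WT replicate 1 at 24 hr, 3 were called in that line. Of the 16 NF-kB feedback genes 0 and 0 were called, and 1 without KI replicate 1 at 24 hr in the *Stat5a* line or WT replicate 1 at 4 hr or replicate 3 at 24 hr in the *Stat5b* line.

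**Figure D5:**
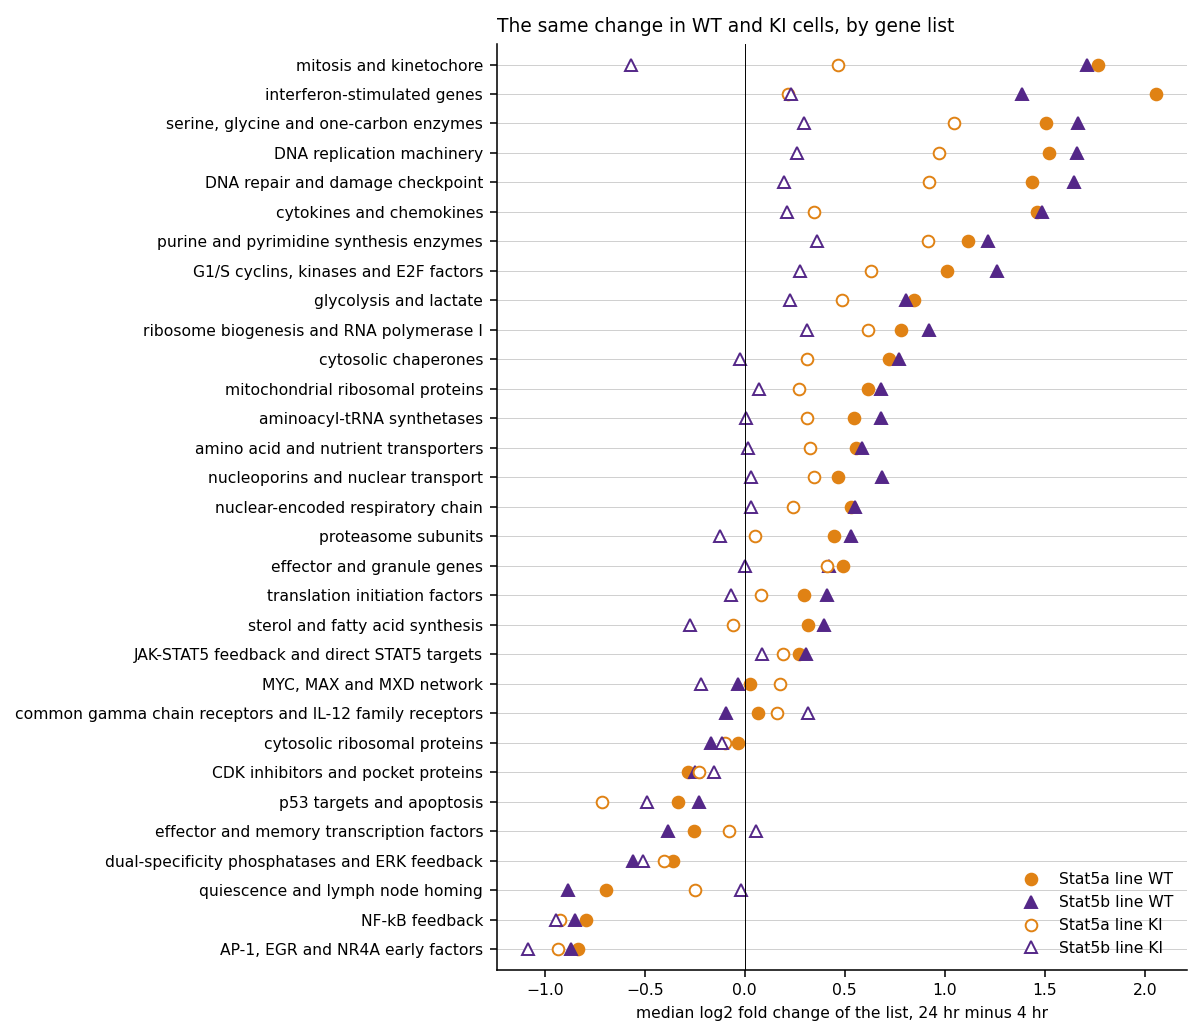
Median log2 fold change at 24 hr minus 4 hr (horizontal axis) of the gene lists (rows) in WT cells (filled) and KI cells (open) of each line, from the fit of 22 libraries. For DNA replication genes the medians were 1.66 in WT and 0.26 in KI cells of the *Stat5b* line and 1.52 and 0.97 in the *Stat5a* line, and for interferon-stimulated genes the KI medians were 0.23 and 0.21.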

How the data were processed

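RNA-seq was done on 100 ng of total RNA per sample with poly(A) libraries and 50-base single-end reads. Per the study's methods and processing notes, the authors mapped reads to mm10 (GRCm38) with TopHat 2.0.11, kept unique ones, and deposited, for each of 31682 RefSeq transcripts, the read count on its exons and the RPKM. The authors' RPKM divides that count by transcript length and mapped reads. The counting program and use of strand are not given in the sources used here, so antisense and overlapping genes, and close copies, are uncertain.

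Here the longest transcript per symbol was kept (23992 symbols, 0 columns of other samples), counts were filtered with filterByExpr (minimum count 10), scaled by TMM, and tested with edgeR 4.0.16 (quasi-likelihood, line as a block, 11 libraries, R 4.3.3). Fits were tested on simulated data. RPKM are printed per library. In these libraries 3 reads correspond to 0.0613 to 0.0807 CPM, and such limits cover counting error only. Within-line, KI (22 libraries), and time-course (23 libraries) fits used the same steps. Same-numbered libraries of a line deviated together (*Stat5a* line correlations of 0.208 and 0.212, *Stat5b* line correlations of 0.142, 0.179, and 0.318). The pairing by number rests on this check, as the labels do not say that a number marks 1 mouse or day. DESeq2 1.42.0, limma 3.58.1 on log2(RPKM + 1), other filters, transcripts, and libraries were alternatives.

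Genes named were the 12 largest rises and falls among called genes with non-overlapping groups and a mean RPKM of at least 5 at 4 or at 24 hr (so that a gene could pass through the group where it was high), genes the study discusses, up to 4 members at each end of each list, the 6 largest KI differences in each direction among called genes with a mean RPKM of at least 5 in a group compared (5 met this for higher genes of the *Stat5a* line), called list members, and genes whose promoter windows are shown. Some of these genes are not reported here. *Ifngr1*, *Tnfrsf18*, and *Ctla2a* were added after their values were seen. The comparison, lists, and tests were chosen with earlier results of these data known. Left out at 4 hr were WT replicate 2 and KI replicate 3 of the *Stat5a* line, which had few reads on transcripts.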

Additional observations from a re-analysis of the deposited data

Results flagged for a closer look

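The 23 results below are changes between 4 and 24 hr that differed between KI and WT cells of the same line by the interaction term of edgeR's quasi-likelihood fit of 22 libraries, given as the KI change minus the WT change on the log2 scale with the Benjamini-Hochberg adjusted p. They are those with the largest difference in each direction, and the rule that chose them used the same values.

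In the *Stat5b* line, genes whose rise was lower in KI cells were the chemokines *Ccl3* (-4.38, adjusted p = 1.47e-06, WT 4.86, KI 0.48) and *Ccl4* (-3.61, 4.82e-07, WT 3.86, KI 0.25). *Asns*, which makes asparagine, rose in WT cells (2.68) and had the opposite sign in KI cells (-1.55), a difference of -4.23 (4.5e-06). *Mcm10*, a replication initiation factor, differed by -3.81 (2.18e-08, WT 4.31, KI 0.50). *Esco2*, which acetylates cohesin in S phase, differed by -3.58 (7.35e-07, WT 3.33, KI -0.25), and *Clhc1* by -3.58 (9.7e-06, WT 3.87, KI 0.29). In the other direction were *Xkrx* (2.78, 0.000866, WT -1.82, KI 0.96), *Fam46a* (2.21, 6.39e-10, WT -1.47, KI 0.73), the *Mir22* row (1.77, 0.032, WT -3.58, KI -1.81), *Ecm1* (1.58, 1.57e-06, WT -2.31, KI -0.73), *Sirpa* (1.56, 0.0308, WT -1.35, KI 0.21), and *Zbtb20* (1.52, 0.000128, WT 0.29, KI 1.81). *Fam46a* read 27.4, 23.5, and 23.8 RPKM at 4 hr and 9.25, 8.21, and 9.64 at 24 hr in WT cells, and 9.31, 8.57, and 8.98 and 15.3, 11.7, and 14.8 in KI cells, which thus had lower levels at 4 hr and higher levels at 24 hr than WT cells.

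In the *Stat5a* line, 4 of the 6 genes with the lowest KI change relative to WT were of the interferon-stimulated kind. *Ifit1* differed by -3.47 (0.00101, WT 2.65, KI -0.82), *Oasl2* by -3.47 (0.00131, WT 3.80, KI 0.33), *Ifit3* by -3.28 (0.00131, WT 3.20, KI -0.08), and *I830012O16Rik* by -3.27 (0.00131, WT 3.17, KI -0.10). *Ifng* differed by -3.30 (0.00345, WT 4.21, KI 0.91) and *Ccl3* by -3.28 (0.00202, WT 4.05, KI 0.77). In the other direction were *Fam46a* (1.31, 3.05e-05, WT -1.44, KI -0.13), *Snora81* (1.09, 0.0427, WT -0.62, KI 0.47), *St8sia6* (1.08, 0.0313, WT -2.02, KI -0.94), *Macf1* (1.03, 0.00279, WT 0.79, KI 1.82), and *Trib2* (1.03, 0.00242, WT -0.69, KI 0.34). *Ifit1*, *Ifit3*, and *I830012O16Rik* are similar in sequence, and *Snora81* is a small RNA within a host gene, so that their read counts are uncertain. With all 24 libraries *Fam46a* was the only 1 of these 11 genes called in the *Stat5a* line, and *Xkrx*, *Mir22*, *Sirpa*, and *Zbtb20* were not called in the *Stat5b* line. With the replicate number as a block, *Snora81* and *Trib2* were not called. Without 1 library the calls of *Macf1*, *Snora81*, *St8sia6*, and *Trib2* (*Stat5a* line) and of *Mir22* and *Sirpa* (*Stat5b* line) were lost for 5 or more of the libraries left out in turn.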

How the results depend on the processing

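The counts of 1144 genes higher and 1029 lower stayed within 1.5 times under DESeq2 or its size factors, no filter, all 12 libraries, no line block, 23 libraries, another transcript, and each left-out library (1070 to 1214 higher and 962 to 1096 lower without 1 library). With the replicate number as a block 1131 were higher and 1089 lower, of which 1109 and 987 were shared with the fit without it, and among the gene values the block took *Cdk7* and *Stat5a*, neither called, past an adjusted p of 0.05, brought *Ccl5* and *S1pr1* under 2-fold, and turned the sign of *Ccnd1*. At the adjusted p alone the counts were 4730 and 4887, with limma 587 and 205, and at a mean RPKM of at least 5, where fewer genes were tested, 586 and 215 (mean at 4 or 24 hr) or 495 and 163 (mean over all libraries, chosen after seeing the data). The early genes called lower were 194 and 199, and 55 and 53 with a mean of at least 5 at 0, 4, or 24 hr, which an early gene can pass through the 4 hr group alone, or 35 and 33 with the mean over all libraries. With the block, added there after seeing the data, the line difference stayed at 0 genes and the KI totals were 245 and 1281, within 1.5 times, but the *Stat5a* line's lower genes went from 294 to 180. The KI differences fell to 11 (*Stat5a* line) and 448 (*Stat5b* line) with all 24 libraries, and without 1 library the *Stat5a* line gave 164 to 533. The cause was not tested.

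Of the called genes named in the text, 17 lost the 2-fold change or the threshold under 1 or more settings other than limma, among them *Ier2*, *Maff*, *Relb*, *Rasa3*, *Bbc3*, and *Idi1* with all 12 libraries and *Xkrx* with no line block. Of 3511 gene values under alternatives, 3473 kept their direction and side of the threshold of 0.05, 27 passed it in only 1 of the fits, and 11 reversed, all of *Ccnd1* and *Il2rb*, which were not called. The log2 fold change of Ccnd1 was -0.10 with all 12 libraries, -0.19 with the replicate block, and -0.16 to 0.18 without 1 library, and the log2 fold change of Il2rb was 0.15 with all 12 libraries and -0.062 to 0.041 without 1 library. Genes with few reads at either time are limited by depth, and limma's pseudocount of 1 shrinks their changes.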
